A study of Rattus norvegicus with 54 samples.

Results

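The transcripts described here were measured in the epididymal adipose tissue (the fat pad beside the testis) of obese male Zucker rats given AG035029, and were set against the same tissue of untreated obese rats. AG035029 is a ligand of the nuclear receptor PPARγ that the labels give by its code name alone. The samples were chosen by those labels and are 3 arrays of AG035029-treated rats and 3 arrays of untreated obese rats, 6 of the 18 adipose arrays and 6 of the 54 arrays of the series. Every AG035029 rat was homozygous for the fatty mutation (fa/fa), a defect of the leptin receptor, and so was every untreated obese rat, which was kept on normal chow. Differences between the groups were thus measured in rats that all carry this defect. Lean rats (fa/+, normal chow, 3 adipose arrays) and obese fa/fa rats given pioglitazone, rosiglitazone or troglitazone (3 adipose arrays each) serve as further comparisons, as do the liver and the gastrocnemius muscle of AG035029-treated and untreated obese rats. Each array was probed with RNA pooled from 2 rats, so a group stands for 6 rats only if its pools held different rats, which the labels do not state. Age, dose, route and length of treatment are not given in the labels.

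PPARγ is the nuclear receptor that drives fat cell formation and lipid storage in adipose tissue, where it pairs with a retinoid X receptor on DNA and is switched on by fatty acids and by thiazolidinedione drugs. Its known target genes in fat cells take up fatty acids, build and coat lipid droplets, and supply the glycerol backbone of triglyceride. The adipose tissue of obese rodents also holds many macrophages, whose transcripts are read together with those of fat cells in a whole-tissue RNA sample. In such bulk samples, fewer cells of a type and less RNA per cell cannot be told apart.

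Expression is given as the MAS5 signal, a linear brightness per probe set (the set of probes for 1 transcript). Changes are differences of log2(signal + 20), AG035029 minus untreated obese, with the SE of the model, and "rose" or "fell" means an adjusted p under 0.05 in limma over all 9519 tested probe sets. The p-values measure the spread between these pooled arrays. Median signals were 228.9 to 231.6 on the AG035029 arrays and 232 to 246 on the untreated obese arrays. The tissue carried its fat cell transcripts, since Fabp4, the fatty acid binding protein of fat cells, averaged 14976 ± 2739.8 in AG035029 tissue and 13074 ± 2981 in untreated obese tissue (SD, n = 3 each), which is no called change (adjusted p = 0.469).

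Several arrays carried transcripts of epithelium or of the epididymis, the organ to which this fat pad is attached. Epcam, an epithelial adhesion protein, read 892, 10.7 and 11 on the AG035029 arrays and 1156, 575 and 17.9 on the untreated obese arrays. Ptgds, a prostaglandin synthase abundant in the male genital tract, read 1557, 7.0 and 29.2 with AG035029 and 2744, 1505 and 23.4 without. Crisp3, Defb1, Defb22 and Adam7, genes of epididymal secretions and epithelium, were high on AG035029 array 1 alone among the adipose arrays, where Crisp3 read 7321. The plot of these transcripts shows Epcam, Ptgds, Cd24, Krt8 and Aldh1a1 higher on AG035029 array 1, untreated obese arrays 1 and 2 and rosiglitazone array 2 than on the other 14 adipose arrays, where Epcam, Ptgds and Cd24 read at most 70.8. The epithelial keratins were not near the bottom elsewhere, with 241 to 717 for Krt8 and 128 to 682 for Krt19 on those 14. Krt19 read 235 on AG035029 array 1 and 1716 and 822 on untreated obese arrays 1 and 2. Both groups held such arrays, and main results are also given without those 3 arrays, a choice made after the values were seen that leaves 2 AG035029 arrays and 1 untreated obese array.

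**Figure D1:**
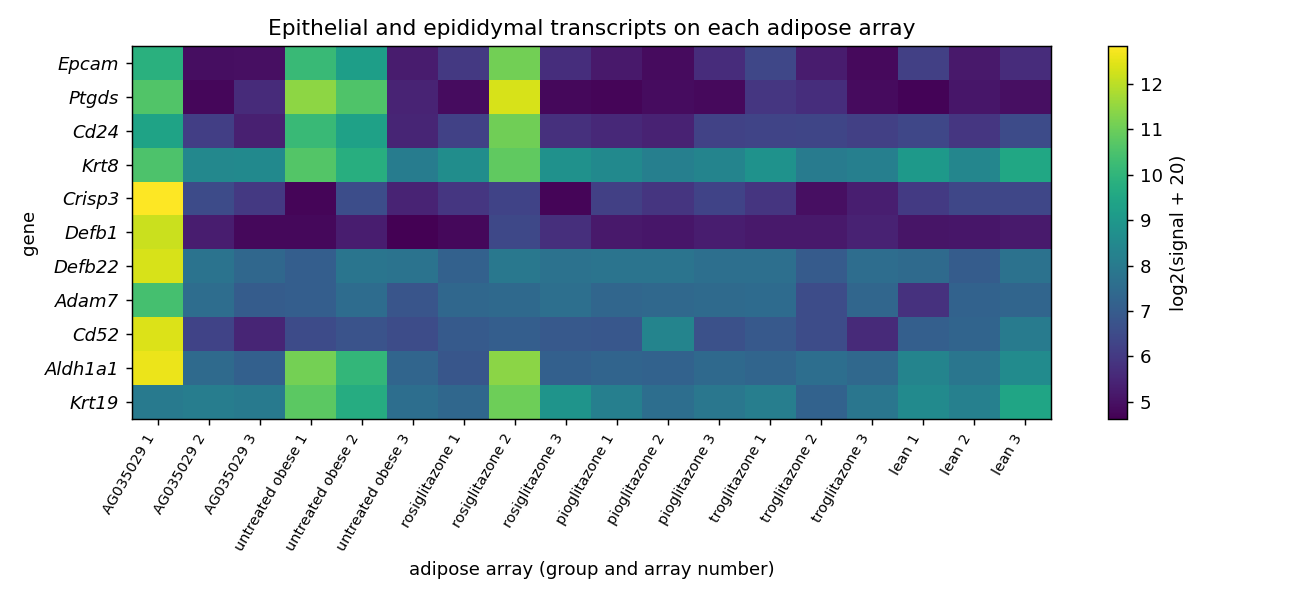
Colour shows log2(signal + 20) of 11 epithelial or epididymal transcripts (rows) on each of the 18 adipose arrays (columns), with AG035029 and untreated obese arrays at the left. AG035029 array 1, untreated obese arrays 1 and 2 and rosiglitazone array 2 stand out for Epcam, Ptgds, Cd24, Krt8 and Aldh1a1, and AG035029 array 1 alone for Crisp3, Defb1, Defb22, Adam7 and Cd52.

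With AG035029, 639 of 9519 probe sets rose (6.71%) and 802 fell (8.43%). The called rises had a median log2 change of 0.66 and the called falls one of -0.66, against -0.03 over all tested probe sets. More than 2-fold changes were found for 112 of the rises and 137 of the falls. The 3 AG035029 arrays lay wholly above or wholly below the 3 untreated obese arrays for 3299 probe sets (34.7%), and for 1402 of the 1441 that were called. The number of calls depended on single arrays, with 385 rises without AG035029 array 2 and 500 falls without untreated obese array 1. Without the 3 arrays that held epididymal or epithelial transcripts, 138 rose and 189 fell.

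**Figure D2:**
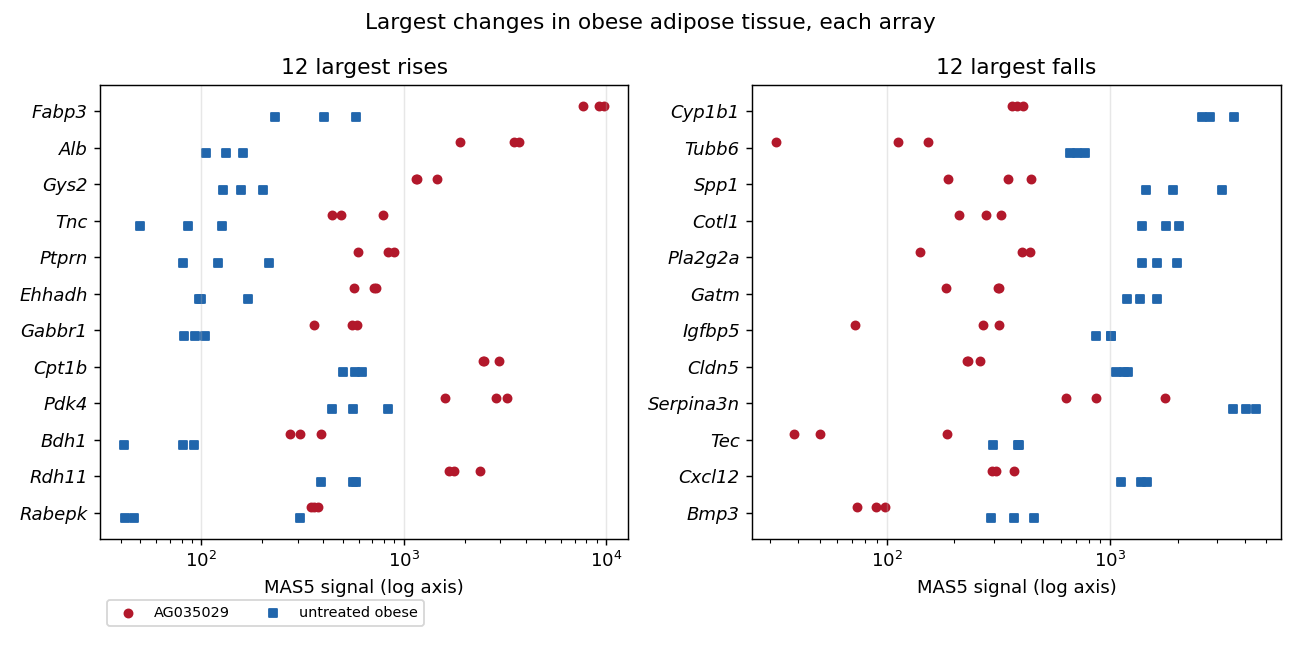
Each point is the MAS5 signal of 1 array (log axis) for the 12 largest rises (left) and the 12 largest falls (right) among called genes whose groups did not overlap, with AG035029 arrays as circles and untreated obese arrays as squares. Separation of the groups was a condition for the choice of the 24 genes. Fabp3 reads 7705 to 9801 with AG035029 and 231 to 583 without.

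The largest rise was that of Fabp3, the fatty acid binding protein known from heart and skeletal muscle. It read 9801, 9236 and 7705 on the AG035029 arrays and 231, 402 and 583 on the untreated obese arrays. Every AG035029 array was far above every untreated obese array, though separate groups were a condition for the choice. The log2 change was 4.48 ± 0.28 (adjusted p = 5.88e-08). Gys2, the glycogen synthase known from liver, read 1171, 1457 and 1150.3 with AG035029 and 202, 129 and 157 without, a change of 2.82 ± 0.27 (adjusted p = 3.62e-06). Cyp1b1, a cytochrome P450 of steroid and xenobiotic metabolism that is under the control of the Ah receptor, showed the largest fall. Its signals were 362, 382 and 406 with AG035029 and 2576, 2789 and 3565 without, tight within each group, and its change was -2.88 ± 0.26 (adjusted p = 1.77e-06).

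Albumin (Alb) rose as well, with signals of 1907, 3496 and 3713 on the AG035029 arrays and 106, 161 and 133 on the untreated obese arrays and a change of 4.27 ± 0.32 (adjusted p = 2.48e-07). Lean adipose tissue lay between, at 609, 475 and 272. Albumin is the main plasma protein made by hepatocytes, so the other hepatocyte markers on the array were read too. Serpina1, the only other one bright enough to be tested, averaged 193 ± 15.8 with AG035029 and 183 ± 15.5 without and was not called. Apoa2 averaged 13.7 ± 6.82 and 11.7 ± 4.04 in that order and Ttr 101 ± 20.9 and 167 ± 31.8, and both were too low to be tested. On a brighter Alb probe set the signals were 3175, 6267 and 6671 with AG035029 and 188, 350.1 and 290 without. With that probe set the summed signal of the 4 hepatocyte markers was 3441 to 6991 with AG035029 and 530 to 759 without.

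Fabp3 is known from muscle, so the 5 skeletal muscle markers on the array were read as well, and their summed signal was 6205 to 7204 with AG035029 and 3741 to 4995 without. Nearly all of it was Myh1, a myosin heavy chain, whose probe set of highest signal read 5346, 6708 and 6746 with AG035029 and 3254, 3664 and 4632 without and was called higher (0.71 ± 0.19, adjusted p = 0.0164). That call ended without AG035029 array 2 or 3 or untreated obese array 1 (adjusted p up to 0.0839). Of 4 other tested Myh1 probe sets 2 were called higher, by 1.0 and 0.75. The Myh1 probe set also averaged 8940 in AG035029 liver, against 5714 in AG035029 muscle. The other markers stood far below their muscle level of 32220 to 71363 in AG035029 rats. Ckm, muscle creatine kinase, averaged 213 ± 42.4 with AG035029 and 194 ± 18 without and was not called, Tnnt3 averaged 50.8 ± 8.28 and 139 ± 34.7, Acta1 262 ± 318 and 86.4 ± 71.4, and Myh4 14.9 ± 11 and 6.57 ± 3.42, the last 3 too low to be tested. Their part in the rise of Fabp3 was not tested.

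The promoters of Fabp3, Alb and Gys2, the named genes with the largest rises, and of Cyp1b1 are given from RefSeq on build GRCr8. Each runs 5′ to 3′ from 250 bases before the gene's start to 50 bases after it. Capitals mark either of 2 motifs on either strand. One is a direct repeat of the kind that PPARγ and a retinoid X receptor bind, written AGGNCA, any base and AGGNCA. The other is GCGTG, the core of the Ah receptor's motif.
Fabp3 (chr5:147935875-147936174, plus strand): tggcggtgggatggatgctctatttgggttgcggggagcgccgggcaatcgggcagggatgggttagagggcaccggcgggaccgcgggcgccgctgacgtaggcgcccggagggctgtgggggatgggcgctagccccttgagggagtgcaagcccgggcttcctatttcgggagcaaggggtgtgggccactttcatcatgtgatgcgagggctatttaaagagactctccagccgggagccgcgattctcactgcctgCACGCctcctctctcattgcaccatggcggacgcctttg
Alb (chr14:17906930-17907229, minus strand): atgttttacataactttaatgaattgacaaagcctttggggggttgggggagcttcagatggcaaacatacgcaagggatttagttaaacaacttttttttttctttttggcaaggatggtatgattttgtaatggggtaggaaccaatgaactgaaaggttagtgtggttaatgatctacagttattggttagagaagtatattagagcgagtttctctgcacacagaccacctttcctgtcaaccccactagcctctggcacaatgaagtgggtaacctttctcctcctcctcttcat
Gys2 (chr4:177137187-177137486, minus strand): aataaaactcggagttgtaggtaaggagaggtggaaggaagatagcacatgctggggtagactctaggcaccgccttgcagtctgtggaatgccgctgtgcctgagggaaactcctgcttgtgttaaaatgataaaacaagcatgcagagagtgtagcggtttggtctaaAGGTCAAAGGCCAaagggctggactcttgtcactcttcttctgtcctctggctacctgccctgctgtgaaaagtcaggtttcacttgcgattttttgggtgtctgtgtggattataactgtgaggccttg
Cyp1b1 (chr6:21094315-21094614, plus strand): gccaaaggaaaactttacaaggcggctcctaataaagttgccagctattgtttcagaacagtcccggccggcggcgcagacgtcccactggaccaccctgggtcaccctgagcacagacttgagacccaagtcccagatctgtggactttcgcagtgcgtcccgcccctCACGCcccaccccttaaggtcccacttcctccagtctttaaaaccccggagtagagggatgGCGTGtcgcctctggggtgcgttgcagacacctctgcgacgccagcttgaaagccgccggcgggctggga
On either strand, the repeat is present in 139 of 33469 rat promoters of this length (0.415%), and AGGTCA alone in 16.2%. Among the 12 genes with the largest rises 11 had a promoter in the table, and 1 of these, Gys2, held the repeat, 80 to 68 bases before its start, with AGGTCA as a part of it. Of all 96 named genes called higher that had a promoter, that was also the only one. GCGTG is present in 29.7% of all promoters, in 6 of these 11 and in 5 of the 12 with the largest falls. It stands at 2 places in the Cyp1b1 promoter and at 1 in that of Fabp3, does not overlap the repeat, and is not in those of Alb and Gys2. A match describes letters, not binding.

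Other large rises were in genes of fatty acid oxidation, signalling and matrix. Tnc, the matrix protein tenascin C, read 443, 791 and 491 with AG035029 and 49.8, 126 and 86.2 without, and its change was 2.49 ± 0.41. Ptprn, a receptor-type phosphatase of secretory granules, read 836, 598 and 894 and 81.4, 121 and 217 in the same order and changed by 2.38 ± 0.25. Rdh11, a retinal reductase, averaged 1945 ± 395 with AG035029 and 514 ± 106 without, with a change of 1.88 ± 0.26. Gabbr1, a subunit of the GABA type B receptor, changed by 2.18 ± 0.49 on its largest probe set and by 0.49 and 0.95 on 2 others that were tested, all called higher. Rabepk, an effector of the endosomal GTPase Rab9, changed by 1.79 ± 0.48, but untreated obese array 2 read 309 against 46.8 and 42.0 on the other two, and adjusted p reached 0.0973 without AG035029 array 2, untreated obese array 1 or untreated obese array 3.

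Among the largest falls, Tubb6, a beta tubulin, read 152, 112 and 32 with AG035029 and 709, 772 and 661 without, a change of -2.79 ± 0.39. Cotl1, a coactosin-like protein that binds actin filaments, read 279, 323 and 211 with AG035029 and 2029, 1388 and 1772 without, and changed by -2.59 ± 0.21 (adjusted p = 6.16e-07). Gatm, which makes the creatine precursor guanidinoacetate, read 315, 316 and 184 against 1184, 1357 and 1611, and changed by -2.29 ± 0.23. For each of these genes every AG035029 array was below every untreated obese array, which was a condition for their choice. Pla2g2a, a secreted phospholipase, changed by -2.41 ± 0.56 and Bmp3, a bone morphogenetic protein, by -1.87 ± 0.24. Spp1 (osteopontin), a secreted phosphoprotein made by macrophages among other cells, read 188, 349 and 441 with AG035029 and 3175, 1906 and 1446 without. Its change of -2.67 ± 0.68 had an adjusted p of 0.0125, which was 0.0621 without untreated obese array 1, the highest of the 6. Calls for Serpina3n, an acute phase serpin (-2.0 ± 0.53), and for Tec, a tyrosine kinase of blood cells (-1.99 ± 0.50), also ended without single arrays. The largest adjusted p was 0.0651 for Serpina3n without AG035029 array 1, AG035029 array 2 or untreated obese array 1, and 0.0550 for Tec without AG035029 array 1 or 2.

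The receptor itself did not pass the test. Pparg read 1289.6, 1783 and 1594 with AG035029 and 1427, 1297 and 1244 without, so that the groups overlapped, and its change was 0.22 ± 0.15 (adjusted p = 0.354). Its partner Rxra changed by 0.11 ± 0.36 (adjusted p = 0.872) and the related receptor Ppard by -0.01 ± 0.13 (adjusted p = 0.956). Ppara, the receptor known for fatty acid oxidation in liver, averaged 15 ± 3.12 with AG035029 and 9.83 ± 4.47 without and was too low to be tested, as was the leptin receptor Lepr, at 117 ± 45.8 and 100.3 ± 1.32. Of 25 tested nuclear receptors, cofactors and adipogenic factors 2 rose and 1 fell, with a median change of -0.01. The rises were those of Rxrg, another retinoid X receptor (0.76 ± 0.18), and of Klf15, an adipogenic zinc finger factor (0.76 ± 0.19), and the fall was that of Klf4 (-0.54 ± 0.17). These 3 calls ended without single arrays, with adjusted p of 0.0504 for Rxrg without untreated obese array 1, up to 0.0644 for Klf15 without AG035029 array 2 or untreated obese array 2, and up to 0.138 for Klf4 without any 1 of 5 arrays.

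Of the 24 listed PPARγ target genes on the array 20 were bright enough to be tested. Among these, 13 rose and 0 fell, with a median change of 0.73, where 6.98% of all 7081 genes tested (1 probe set each) rose and 8.49% fell with a median of -0.03. These shares of all genes stand beside every list count. Lists and members were chosen with earlier results of these data known, so the counts describe the lists and are no test of them. Without the 3 arrays that held epididymal or epithelial transcripts 8 rose. Agpat2, which adds the second acyl chain in triglyceride synthesis, read 5217, 6039.8 and 6594 on AG035029 arrays and 2136, 1724 and 1972 on untreated obese arrays, a change of 1.60 ± 0.21 (adjusted p = 8.23e-05). Cyp4b1, a fatty acid hydroxylase, read 7159.9, 7966 and 9503 and 2466, 2523 and 3309.6 in the same order, with no overlap, and changed by 1.57 ± 0.16. Cidea, a lipid droplet protein, averaged 7438 ± 690.3 with AG035029 and 4473 ± 238 without, and changed by 0.73 ± 0.12. Angptl4, a secreted inhibitor of lipoprotein lipase, averaged 7154 ± 1696 and 4236 ± 241 and changed by 0.72 ± 0.16. Cd36, the fatty acid transporter, changed by 0.55 ± 0.18 with an adjusted p of 0.0423, and this call ended without AG035029 array 2 or 3 or untreated obese array 1, where adjusted p reached 0.216. Well-known targets that did not pass included Lpl, lipoprotein lipase (0.11 ± 0.13), and Pck1, the cytosolic phosphoenolpyruvate carboxykinase (0.32 ± 0.16).

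In glyceroneogenesis and triglyceride synthesis 6 of 15 tested genes rose and 0 fell, with a median of 0.33. Pc, pyruvate carboxylase, read 4678, 5369 and 5466 with AG035029 and 2745, 1606 and 1738 without, and changed by 1.38 ± 0.21 (adjusted p = 2.58e-04). Lpin1, a phosphatidate phosphatase, read 4890, 5245 and 4874 and 2309.8, 2461 and 2493 in that order and changed by 1.04 ± 0.14. For both genes every AG035029 array was above every untreated obese array. Dgat1, which adds the last acyl chain, averaged 4541 ± 314 with AG035029 and 2636 ± 18.5 without, a change of 0.78 ± 0.13. Gpam, the mitochondrial glycerol-3-phosphate acyltransferase, changed by 1.01 ± 0.34, which did not pass (adjusted p = 0.0541).

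Lipolysis and lipid droplet genes showed 6 rises and 0 falls among 18 tested, with a median of 0.33. Pde3b, the phosphodiesterase through which insulin restrains lipolysis, read 2973, 3175 and 2916 with AG035029 and 882, 1315 and 1313 without, with no overlap and a change of 1.38 ± 0.16 (adjusted p = 2.72e-05). Aqp7, the glycerol channel of fat cells, averaged 9647 ± 1661 with AG035029 and 5723 ± 668 without, and changed by 0.74 ± 0.14. Pnpla2, the adipose triglyceride lipase, averaged 11178 ± 1848 and 6954 ± 724 in that order and changed by 0.67 ± 0.15. In the list of fatty acid uptake, carriers and activation 6 of 17 rose and 1 fell, with a median of 0.31. Dbi, the acyl-CoA binding protein, changed by 0.70 ± 0.11 and Gpihbp1, which anchors lipoprotein lipase on capillaries, by 0.62 ± 0.14. The fall was that of Lrp1, an endocytic lipoprotein receptor, which averaged 1299.7 ± 202 with AG035029 and 2370.3 ± 243 without (-0.86 ± 0.15).

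**Figure D3:**
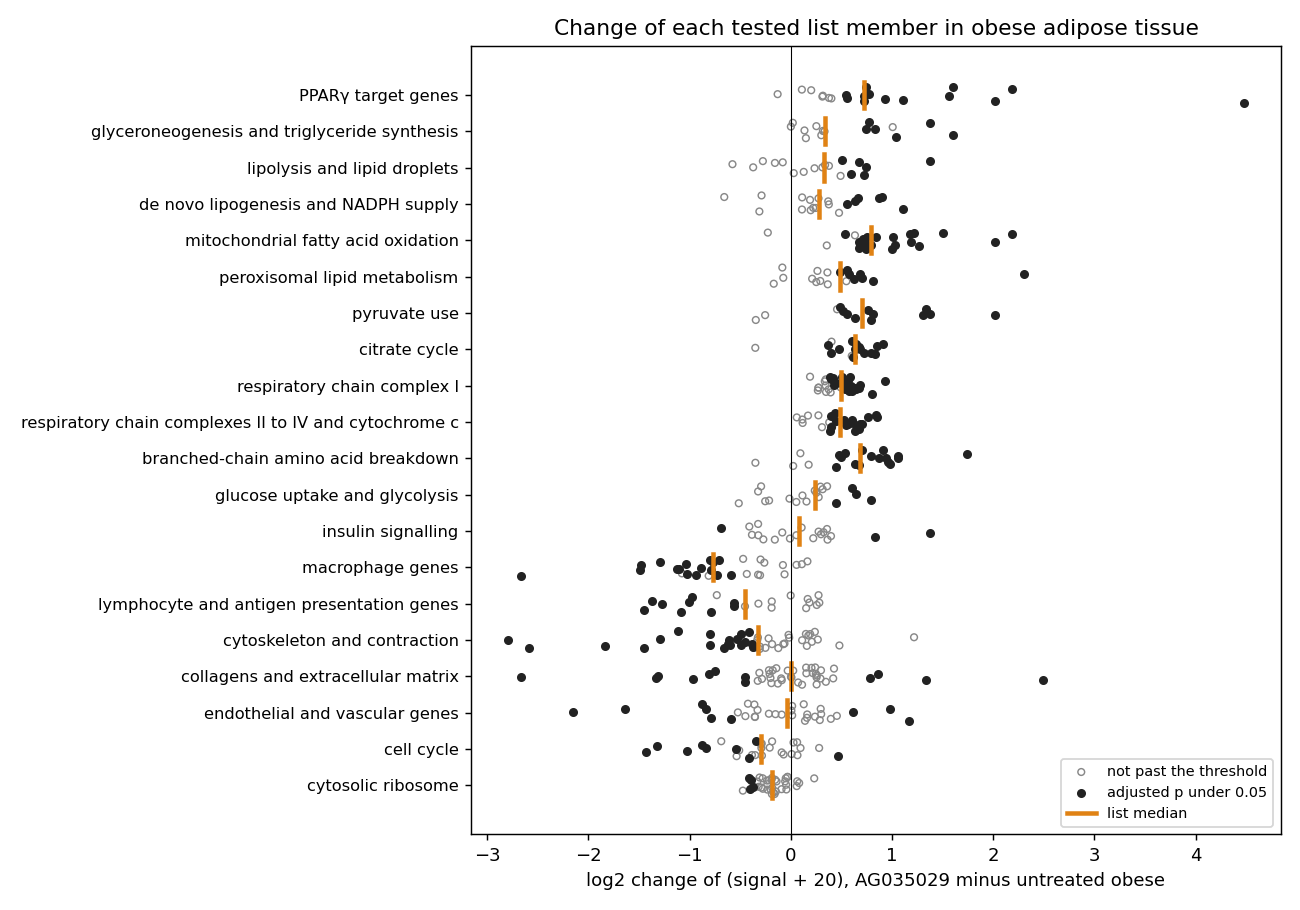
Each point is the log2 change (AG035029 minus untreated obese) of 1 tested gene in 20 of the gene lists, filled where adjusted p was under 0.05, and orange bars are list medians. Lists of lipid oxidation, pyruvate use and respiration lie right of 0, macrophage, antigen presentation and cytoskeleton lists lie left of it, and the matrix list has called members on both sides of a median of 0.00.

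At an unadjusted p under 0.05 (limma), the lists given with 0 falls had 1 fall each in lipolysis and lipid droplets, de novo lipogenesis, the citrate cycle and glycolysis and 0 in the others. Of the lists given with 0 rises, antigen presentation had 1 at that level, and macrophage, cytoskeletal and ribosomal genes had 0. Without AG035029 array 1, 1 fall was called in ATP synthase and 1 in de novo lipogenesis, and 1 rise in antigen presentation. Some genes, such as Fabp3, Sdha and Spp1, stand in more than 1 list, so the list counts are not independent of each other. Fewer members passed in most lists without the 3 arrays with epididymal or epithelial transcripts, also where only a median is given for that setting.

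Mitochondrial fatty acid oxidation showed 20 rises and 0 falls among its 23 tested genes, with a median change of 0.80. Leaving out any 1 of the 6 arrays gave 18 to 20 rises, which included 17 to 20 of these genes, and 14 of them were called without the 3 arrays with epididymal or epithelial transcripts. Cpt1b, the muscle form of the carnitine acyltransferase that admits fatty acids to mitochondria, read 2949, 2493 and 2475 with AG035029 and 502, 626 and 572 without (2.18 ± 0.17, adjusted p = 2.48e-07). Slc25a20, the carnitine-acylcarnitine carrier, averaged 879.9 ± 71.5 with AG035029 and 430.5 ± 41.2 without, a change of 1.0 ± 0.12. Acaa2, the thiolase that ends each turn of the cycle, read 6943, 6565 and 8979 and 2935, 3092 and 3577 in that order (1.21 ± 0.13). Eci2, an enoyl-CoA isomerase, averaged 3276 ± 289 with AG035029 and 1438 ± 70.1 without (1.17 ± 0.14). Etfdh, which passes electrons from this pathway to the respiratory chain, averaged 2064 ± 359 and 839 ± 68.5 (1.27 ± 0.15). The members thus ran from the entry step to the exit of electrons, and 22 of the 23 changes were above 0.

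Peroxisomal lipid metabolism had 8 rises and 0 falls among 19 tested genes, with a median of 0.48. Ehhadh, the bifunctional enzyme of peroxisomal oxidation, read 566, 716 and 729 with AG035029 and 169.5, 100 and 97.3 without, and changed by 2.31 ± 0.17 (adjusted p = 2.48e-07). Without the 3 arrays that held epididymal or epithelial transcripts 1 rise was left, that of Ehhadh. Of 6 tested genes of ketone body metabolism 3 rose: Bdh1, the mitochondrial hydroxybutyrate dehydrogenase, read 391, 307 and 275 with AG035029 and 81.1, 41.7 and 92.5 without (1.94 ± 0.21). Acat1, the acetoacetyl-CoA thiolase, averaged 4785 ± 641 with AG035029 and 2265 ± 61 without (1.06 ± 0.11), and Aacs, which reactivates acetoacetate, changed by 1.05 ± 0.20.

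Genes of pyruvate use showed 11 rises and 0 falls among 14 tested, with a median of 0.70. Pdk4, the kinase that shuts the pyruvate dehydrogenase complex, read 1603, 2850.1 and 3224 with AG035029 and 442, 560.1 and 834 without (2.02 ± 0.26, adjusted p = 7.34e-05). Its relative Pdk1 averaged 2189 ± 325 with AG035029 and 873 ± 97.8 without (1.30 ± 0.17), and Ldhb, the lactate dehydrogenase subunit of oxidative tissues, averaged 7836 ± 1101 and 4480.1 ± 359.9 (0.80 ± 0.11). In the citrate cycle 14 of 17 tested genes rose and 0 fell, with a median of 0.63. Idh3b, a subunit of the NAD-dependent isocitrate dehydrogenase, read 2787, 3121 and 2833 with AG035029 and 1476, 1513 and 1632 without (0.91 ± 0.14). Sdha and Sdhd, subunits of succinate dehydrogenase, changed by 0.85 ± 0.15 and 0.69 ± 0.12. Counts without the 3 arrays with epididymal or epithelial transcripts were 6 rises in pyruvate use and 2 in the citrate cycle, with medians of 0.78 and 0.66.

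Genes of the respiratory chain rose in number. In complex I, 22 of 34 tested subunits rose and 0 fell, all 34 changes were above 0, and the median was 0.49. The number of calls was 12 without AG035029 array 2, 13 without AG035029 array 3 or untreated obese array 2, 14 without untreated obese array 1, and 16 after median centring. Ndufv1, the subunit that binds NADH, read 4087, 4933 and 4306 on AG035029 arrays and 2720.4, 2983 and 2008 on untreated obese arrays (0.80 ± 0.15). Ndufs7, an iron-sulphur subunit, averaged 2461 ± 131 with AG035029 and 1621 ± 119 without (0.60 ± 0.12). Among 26 tested genes of complexes II to IV and cytochrome c 18 rose and 0 fell, with a median of 0.49, and 11 rose without AG035029 array 2. Uqcrfs1, the Rieske iron-sulphur protein of complex III, read 7587, 8168 and 8257 with AG035029 and 5008, 4978 and 4216 without (0.76 ± 0.12). Of 14 tested ATP synthase subunits 7 rose and 0 fell with a median of 0.41, but this count was 2 without AG035029 array 2 or 3, 3 without untreated obese array 2 or 3, 4 without untreated obese array 1 and 3 after centring. Atp5f1d, the delta subunit, averaged 3393 ± 148 with AG035029 and 2161 ± 137 without (0.65 ± 0.12). Carriers, ribosomal proteins and import factors of mitochondria had 9 rises and 1 fall among 47 tested, with a median of 0.19, and the falls numbered 2 without AG035029 array 1 and 0 without untreated obese array 1. Without the 3 arrays with epididymal or epithelial transcripts 4 rises were left in complex I, 4 in complexes II to IV and 1 in ATP synthase, with medians of 0.42, 0.52 and 0.48.

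Breakdown of the branched-chain amino acids leucine, isoleucine and valine followed the same direction, with 16 rises and 0 falls among 20 tested genes and a median of 0.69. Acadsb, which oxidises the short branched acyl-CoA made from isoleucine, read 1439, 1806 and 1839.5 with AG035029 and 517, 464 and 486 without (1.75 ± 0.29, adjusted p = 5.62e-04). Bckdhb, a subunit of the complex that commits the keto acids to breakdown, averaged 2596 ± 209.5 with AG035029 and 1354 ± 245 without (0.94 ± 0.13). Hibch, a valine pathway hydrolase, averaged 1217 ± 77.7 and 611 ± 81.2 (0.98 ± 0.14). Of these 16 genes 10 were called without untreated obese array 1, and 5 without the 3 arrays with epididymal or epithelial transcripts.

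Among other amino acid, creatine and taurine genes 7 of 31 rose and 3 fell, and the number of rises was 3 without AG035029 array 2 or 3 and 4 without untreated obese array 1 or 3, while that of falls was 5 without AG035029 array 1. Psat1 of serine synthesis read 5567, 5276 and 5582 with AG035029 and 2091, 2356 and 2727 without (1.20 ± 0.14), and Asns, asparagine synthetase, averaged 1684 ± 94.5 and 986 ± 16.5 (0.76 ± 0.12). Falls included Gatm, given above, and Slc6a6, the taurine transporter, which averaged 449 ± 55.8 with AG035029 and 786 ± 57.9 without (-0.79 ± 0.16). Another tested Slc6a6 probe set changed by -0.39 and was not called.

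De novo lipogenesis and NADPH supply had 6 rises and 0 falls among 19 tested genes and a median of 0.27. Its count was 3 without AG035029 array 2 and 2 without AG035029 array 3 or untreated obese array 3. Pgd, an NADPH-making enzyme of the pentose phosphate pathway, averaged 6667 ± 461 with AG035029 and 3644 ± 442 without (0.87 ± 0.13). Acaca, acetyl-CoA carboxylase, changed by 0.66 ± 0.16, and its adjusted p was 0.0521 without AG035029 array 3. In cholesterol synthesis and uptake 2 genes rose and 1 fell among 15, and no call was left without untreated obese array 1. Leaving out untreated obese array 2 gave 1 rise, and the fall also ended without AG035029 array 2 or 3 or untreated obese array 3. Glucose uptake and glycolysis had 4 rises and 0 falls among 19, and 2 rises without untreated obese array 1. Pgam1, phosphoglycerate mutase, averaged 7994 ± 1278 with AG035029 and 5189 ± 127 without (0.61 ± 0.14). The insulin-regulated glucose transporter Slc2a4 read 1437, 2191 and 2082 with AG035029 and 1707, 1374 and 1565 without, overlapping, and its change of 0.28 ± 0.19 did not pass (adjusted p = 0.365). Insulin signalling had 2 rises and 1 fall among 20 with a median of 0.08, and the rises were Pde3b and Irs3, an insulin receptor substrate of rodent fat cells (0.84 ± 0.13). Grb14, an adaptor that inhibits the insulin receptor, fell (-0.68 ± 0.18), with adjusted p up to 0.0668 without AG035029 array 1 or 2 or untreated obese array 3.

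Of 23 tested adipokines and secreted factors 4 rose and 2 fell, where 6.98% of all genes tested rose and 8.49% fell. The list median was -0.12, and 0.14 without the 3 arrays with epididymal or epithelial transcripts. Nampt, which makes NAD and is also secreted, read 1656, 1978 and 1625 with AG035029 and 776, 777 and 889 without (1.09 ± 0.17, adjusted p = 2.68e-04). Cfd, the complement factor adipsin, averaged 13485 ± 2626 with AG035029 and 8882 ± 792 without (0.59 ± 0.13). Leptin (Lep) read 3420, 4191 and 3407 with AG035029 and 6671, 5518 and 6268 without, so that the groups did not overlap, but its change of -0.74 ± 0.32 did not pass (adjusted p = 0.133), while it passed in a fit of these 2 groups alone (adjusted p = 0.00535). Igfbp5 and Igfbp3, binding proteins of insulin-like growth factors, fell. The Igfbp5 probe set with the highest signal averaged 903 ± 33.8 with AG035029 and 2447 ± 379 without (-1.41 ± 0.14), another probe set changed by -2.23 ± 0.37, and Igfbp3 changed by -0.95 ± 0.21.

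Of the 12 listed brown fat genes on the array 5 were tested, and Fabp3, Cpt1b and Cidea rose. The defining gene of brown fat cells, the uncoupling protein Ucp1, averaged 77.3 ± 24.3 with AG035029 and 35 ± 21 without, below the level needed for a test. Ppargc1a, the coactivator of mitochondrial biogenesis, averaged 4.53 ± 3.72 and 2.53 ± 0.751 in that order, near 0 in both groups.

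Macrophage genes fell, with 0 rises and 16 falls among 29 tested and a median change of -0.77. Leaving out any 1 of the 6 arrays gave 13 to 16 falls, all but 1 of them (without AG035029 array 2) among these 16 genes, and 6 were left without the 3 arrays with epididymal or epithelial transcripts, with a median of -0.59. Cd68, a lysosomal glycoprotein of macrophages, read 1643, 1198 and 1149 with AG035029 and 2233, 2222 and 2417 without (-0.79 ± 0.16, adjusted p = 0.00316). Fcer1g, the signalling chain of Fc receptors, read 2454, 2940.1 and 2939 with AG035029 and 5165, 5013 and 5185 without (-0.88 ± 0.13). Tyrobp, an adaptor of myeloid receptors, read 464, 493 and 515 and 870.4, 991 and 1006 in that order (-0.93 ± 0.15). For all 3 genes the groups were separate. Lcp1, the leukocyte actin-bundling protein, averaged 909 ± 117 with AG035029 and 2248 ± 263 without (-1.29 ± 0.15), and Cyba, a subunit of the phagocyte oxidase, averaged 794 ± 70.5 and 1635 ± 106 (-1.03 ± 0.15). The summed signal of the 6 macrophage markers was 8622 to 9660 with AG035029, 14716 to 15104 in untreated obese tissue and 8973 to 10075 in lean tissue. Cd14, the coreceptor for endotoxin, did not pass (-0.26 ± 0.15, adjusted p = 0.253).

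Genes of lymphocytes and antigen presentation had 0 rises and 9 falls among 21, with a median of -0.45. The median was -0.42 without the 3 arrays with epididymal or epithelial transcripts, where fewer of these falls passed. Cd74, the invariant chain that escorts class II molecules, read 3364, 3993 and 4128 with AG035029 and 8048, 7973 and 8238 without (-1.08 ± 0.15, adjusted p = 9.61e-05). Coro1a, an actin regulator of white blood cells, read 197, 226 and 216 and 742, 607 and 523 in that order (-1.45 ± 0.18), and Cd37, a tetraspanin known from B cells, averaged 201 ± 55.2 with AG035029 and 552 ± 159.5 without (-1.37 ± 0.22). The T cell genes Cd3e and Cd2 and the B cell gene Cd79b were below the level needed for a test in both groups. Of 27 chemokines, cytokines and acute phase genes 1 rose and 7 fell. Their median was -0.29, and -0.06 without the 3 arrays with epididymal or epithelial transcripts. The number of falls was 4 without AG035029 array 1 or 3 or untreated obese array 1 or 2, and the rise, that of the acute phase protein Orm1 (0.76 ± 0.225), ended without AG035029 array 1 or 3 or untreated obese array 1 or 3 (adjusted p up to 0.173). Tgfb1, a cytokine of matrix deposition and immune restraint, averaged 324 ± 62.1 with AG035029 and 753 ± 99.1 without (-1.18 ± 0.15). Cxcl12, a chemokine of stromal cells, changed by -1.95 ± 0.19, -1.60 and -0.92 ± 0.25 on its 3 tested probe sets, and the last of these calls ended without AG035029 array 2 or untreated obese array 1 (adjusted p up to 0.0994). Interferon response genes had 0 rises and 2 falls among 18 and a median of 0.16, with 3 rises at an unadjusted p under 0.05, 3 called rises without untreated obese array 1 and 2 after quantile normalization. The falls were those of Ifitm1 (-1.10 ± 0.16), an antiviral membrane protein, and Irf8 (-1.04 ± 0.17), a transcription factor of myeloid cells.

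**Figure D4:**
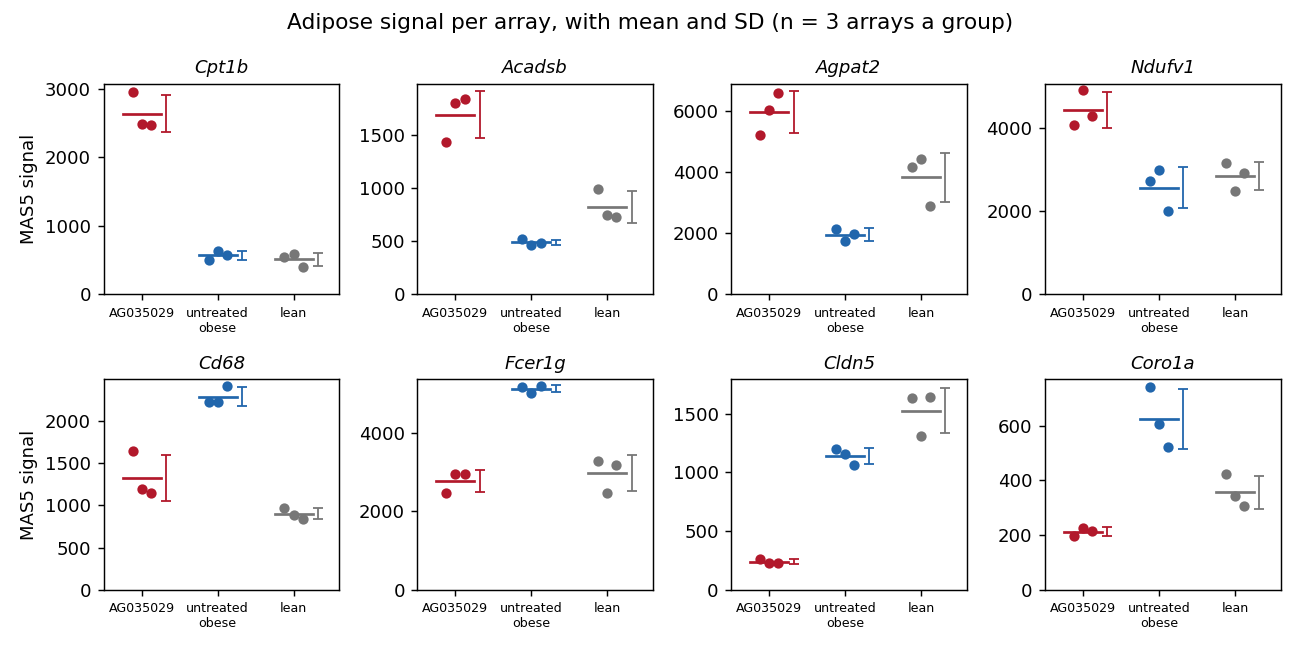
Points are MAS5 signals of single adipose arrays, lines are means and error bars are SDs (n = 3 arrays) for AG035029, untreated obese and lean rats, on axes that start at 0. Cpt1b, Acadsb, Agpat2 and Ndufv1 are highest with AG035029, Cd68 and Fcer1g are highest in untreated obese tissue, and Cldn5 and Coro1a are lowest with AG035029.

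Cytoskeletal and contractile genes had 0 rises and 19 falls among 42, with a median of -0.33. Besides Tubb6, Cotl1, Lcp1 and Coro1a, S100a4, a calcium-binding protein of motile cells, read 1048, 1857 and 1684 with AG035029 and 6007, 4966 and 5132 without (-1.83 ± 0.21, adjusted p = 2.12e-05). Without the 3 arrays with epididymal or epithelial transcripts 11 falls were left, with a median of -0.37. Some of these genes, such as Lcp1 and Coro1a, are known from white blood cells and stood in the immune lists as well. The part that the lower macrophage transcripts have in these falls was not tested.

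Of 44 collagens and other matrix genes 4 rose and 8 fell, where 6.98% of all genes tested rose and 8.49% fell. The list median was 0.00, also without the 3 arrays with epididymal or epithelial transcripts, where fewer rises and falls passed. Besides Tnc, Postn (periostin) rose, with averages of 6389.7 ± 1657 under AG035029 and 2533 ± 799.6 without it (1.34 ± 0.27). Col6a3, a chain of collagen VI, changed by 0.78 ± 0.18. Col14a1, a collagen that sits on fibrils, read 1050.3, 997 and 1079 with AG035029 and 2569, 2442 and 2833 without (-1.31 ± 0.13, adjusted p = 5.96e-06). Lum (lumican), a fibril-binding proteoglycan, fell (-0.80 ± 0.15). In matrix remodelling 1 of 27 rose and 5 fell, among them Pdgfra, the growth factor receptor of fat progenitors and fibroblasts (-0.76 ± 0.11), and Mmp2, a gelatinase (-1.10 ± 0.18). The rise ended without AG035029 array 2, and that list had 2 falls without AG035029 array 2 or untreated obese array 1, and 3 without AG035029 array 1 or 3 or untreated obese array 2. Another tested Mmp2 probe set changed by 0.47, the opposite direction, and was not called.

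Of 32 endothelial and vascular genes 3 rose and 6 fell, with a median of -0.04, where 6.98% of all genes tested rose and 8.49% fell. Kdr, a receptor for vascular endothelial growth factor, read 1983, 2019 and 2039.6 with AG035029 and 983, 1073 and 982 without (0.98 ± 0.16, adjusted p = 3.89e-04). Vegfa, its ligand, averaged 1317 ± 113 with AG035029 and 853 ± 94.5 without (0.62 ± 0.14), and F3, tissue factor, averaged 2461 ± 322 and 1076 ± 66.3 (1.17 ± 0.11). On the other side Cldn5, a tight junction protein of endothelium, read 262, 229 and 230 with AG035029 and 1195, 1154 and 1065 without (-2.15 ± 0.15, adjusted p = 9.12e-08). Aqp1, a water channel of endothelium and red cells, averaged 902 ± 145 with AG035029 and 2853 ± 462 without (-1.64 ± 0.25), and Nrp1, a coreceptor for the same growth factor, changed by -0.83 ± 0.14. Other tested probe sets changed by -0.63 for Aqp1, which was called, and by -0.66 for Nrp1, which was not. The endothelial marker Pecam1 changed by -0.22 ± 0.20 and Vwf by 0.30 ± 0.37, and neither passed.

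The cell cycle list had 1 rise and 8 falls among 28, with a median of -0.29. Stmn1 (stathmin), which takes microtubules apart in dividing cells, read 276, 205 and 253 with AG035029 and 737, 645 and 682 without (-1.43 ± 0.15, adjusted p = 8.48e-06). Ccnb2, a mitotic cyclin, read 123, 112 and 95.1 and 272, 327 and 319 in that order (-1.32 ± 0.18). There were 4 or 5 falls without any single one of AG035029 arrays 2 and 3 and the untreated obese arrays, and 3 without the 3 arrays with epididymal or epithelial transcripts. The rise, that of the kinase inhibitor Cdkn2c (0.47 ± 0.14), ended without any 1 array, with adjusted p up to 0.140. Cytosolic ribosomal proteins had 0 rises and 4 falls among 36 with a median of -0.19. This count was 0 after median centring and 19 after quantile normalization, and 0 to 2 without AG035029 array 1 or 3 or untreated obese array 1 or 3.

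Smaller shifts were found elsewhere. Among 41 antioxidant and glutathione genes 6 rose and 1 fell, or 2 without AG035029 array 1 or 2 or untreated obese array 3. The list median was 0.21, and 0.20 without the 3 arrays with epididymal or epithelial transcripts, where fewer rises passed. Sod2, the mitochondrial superoxide dismutase, rose (0.74 ± 0.13), while Gpx1, a cytosolic glutathione peroxidase, read 3765, 4693 and 4921 with AG035029 and 8195, 7083 and 8514 without (-0.83 ± 0.12). In the xenobiotic, steroid and retinoid list 4 of 20 rose and 1, Cyp1b1, fell. Rbp7, a retinoid binding protein of fat, averaged 5301 ± 793 with AG035029 and 1849 ± 376 without (1.52 ± 0.20), and Ephx2, the soluble epoxide hydrolase, averaged 1685 ± 86.7 and 685 ± 10.3 (1.27 ± 0.15). Ion pumps and channels had 2 rises and 7 falls among 24, among them Kcnj8, a subunit of ATP-sensitive potassium channels (-0.88 ± 0.13), and Fxyd5, a regulator of the sodium pump (-0.86 ± 0.14). Of 38 lysosomal genes 2 rose and 7 fell, with 1 rise without AG035029 array 3 or untreated obese array 1 or 2, and 12 falls after quantile normalization. The lysosomal median was -0.14, and -0.19 without the 3 arrays with epididymal or epithelial transcripts, where fewer rises and falls passed. Endoplasmic reticulum genes (26 tested), proteasome subunits (33), complement genes (12), glycogen genes (12) and clock genes (12) had at most 2 calls in either direction. Falls of endoplasmic reticulum genes numbered 2, but 4 after quantile normalization, 3 without AG035029 array 1 and 0 without any 1 of the other 5 arrays. Quantile normalization also gave 3 falls of complement genes, 3 rises of proteasome subunits and 3 of glycogen genes.

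Set against lean rats, AG035029 tissue had 1025 probe sets higher and 1360 lower (25.1% of 9519). This comparison shares the 3 AG035029 arrays with the one above. Of the 1441 probe sets called against untreated obese tissue, 453 were higher and 503 lower than in both untreated obese and lean tissue, 5 had risen but were still below the lean level and 6 had fallen but were still above it. Fabp3 was 5.59 ± 0.28 above lean (log2), Nudt7, a peroxisomal hydrolase of coenzyme A, 2.77 ± 0.15, Cyp4b1 2.71 ± 0.16, and the keratin gene Krt79 3.12 ± 0.20. Nudt7 itself averaged 2299 ± 355 with AG035029, 719 ± 46.8 in untreated obese and 319 ± 21.4 in lean tissue. Among genes below lean, Slc22a3, a transporter of organic cations, read 77.4, 64.7 and 105 with AG035029, 148, 206 and 220 in untreated obese tissue and 1388, 1289 and 1426 in lean tissue. Frzb, a secreted Wnt antagonist, differed from lean by -3.06 ± 0.18 but did not differ from untreated obese tissue by the test (-0.26 ± 0.18). Pparg averaged 1555 ± 249 with AG035029 and 2809 ± 249.9 in lean tissue, a difference of -0.85 ± 0.15 (adjusted p = 5.55e-04).

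The lists were set against lean tissue too, where 10.9% of all 7081 genes tested were higher with AG035029 and 14.2% lower. Of the 20 tested PPARγ targets 12 were above lean, as were 20 of 23 genes of fatty acid oxidation, 14 of 17 of the citrate cycle (1 was below) and 26 of 34 subunits of complex I. Of the 29 macrophage genes 3 were above lean and 2 below, shares no higher than those of all genes. Fcer1g averaged 2778 ± 281 with AG035029, 5121 ± 94.4 in untreated obese and 2971 ± 454 in lean tissue, and its difference from lean was -0.09 ± 0.13 (adjusted p = 0.666). Cd68 averaged 1330 ± 272, 2291 ± 109 and 901 ± 63.6 in that order, and stayed 0.54 ± 0.16 above lean (adjusted p = 0.0225). Gatm, at 272 ± 75.7 with AG035029, 1384 ± 215 untreated and 251 ± 22.4 in lean tissue, differed from lean by 0.07 ± 0.23 (adjusted p = 0.858). Endothelial and vascular genes had 1 above and 14 below lean.

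Between AG035029 and each of the other ligands almost no probe set passed: 1 against pioglitazone (0.0105%), 4 against rosiglitazone (0.042%) and 1 against troglitazone (0.0105%). Without single arrays the counts ran from 0 to 2 against pioglitazone, 3 to 9 against rosiglitazone and 0 to 3 against troglitazone. At an unadjusted p under 0.05 the counts were 554, 846 and 747 of 9519 (limma). A share of about 0.05 of all probe sets lies under that level where nothing differs, so these are not counts of ligand differences. The doses and treatment times of the ligands are not known, so these are differences between groups as given, and the median 95% interval of a difference reached 0.34 to either side. F3 read 2831, 2250.1 and 2302 with AG035029 and averaged 1267 with rosiglitazone, a difference of 0.94 (95% interval 0.72 to 1.17, adjusted p = 6.15e-04) whose adjusted p was 0.0912 in a fit of these 2 groups alone. Cotl1 averaged 271 ± 56.8 with AG035029 and 899 with rosiglitazone, a difference of -1.67 (95% interval -2.12 to -1.23, adjusted p = 0.00146). Cd300c2, an immunoglobulin-like receptor of myeloid cells, differed by -0.93 (95% interval -1.24 to -0.61, adjusted p = 0.023), and that call ended without AG035029 array 1 or 3 or rosiglitazone array 1 or 3 (adjusted p up to 0.147), in a fit of these 2 groups alone (0.167) and with the replicate number as a block (0.0535). Without rosiglitazone array 2, which held epithelial transcripts, 6 probe sets passed against rosiglitazone, and the differences were 0.89 for F3 (adjusted p = 0.00777), -1.58 for Cotl1 (0.0184) and -1.02 for Cd300c2 (0.0238).

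Each ligand was set against the same 3 untreated obese arrays, so the following values share them. The median change of the 20 tested PPARγ targets was 0.73 with AG035029, 0.77 with pioglitazone, 0.52 with rosiglitazone and 0.61 with troglitazone. For fatty acid oxidation it was 0.80 with AG035029, 1.01 with pioglitazone, 0.60 with rosiglitazone and 0.96 with troglitazone. For macrophage genes the medians were -0.77, -0.62, -0.29 and -0.77 in that order. Without rosiglitazone array 2 the rosiglitazone medians were 0.65 for PPARγ targets, 0.70 for fatty acid oxidation and -0.33 for macrophage genes. Cpt1b differed between AG035029 and pioglitazone by -0.25 (95% interval -0.60 to 0.10, adjusted p = 0.893), and between AG035029 and troglitazone by -0.35 (95% interval -0.70 to 0.00, adjusted p = 0.638). Agpat2 differed from pioglitazone by 0.04 (95% interval -0.41 to 0.48, adjusted p = 0.991), from rosiglitazone by 0.41 (95% interval -0.03 to 0.86, adjusted p = 0.609) and from troglitazone by 0.04 (95% interval -0.41 to 0.49, adjusted p = 0.975). Fcer1g differed from rosiglitazone by -0.51 (95% interval -0.79 to -0.23, adjusted p = 0.25). Without rosiglitazone array 2 those differences were 0.11 for Agpat2 (95% interval -0.27 to 0.48) and -0.55 for Fcer1g (95% interval -0.87 to -0.24). In that setting Cpt1b differed from rosiglitazone by 0.17 (95% interval -0.21 to 0.56), opposite in sign to its differences from pioglitazone and troglitazone. These intervals bound how far the ligands may differ for each gene and do not show that they act alike.

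The effect of AG035029 in adipose tissue was last compared with its effect in liver and in gastrocnemius muscle, in 1 fit of all 54 arrays. Here 239 of 11520 probe sets differed between adipose tissue and liver (2.07%), with 141 more positive in adipose tissue, and 132 between adipose tissue and muscle (1.15%), with 90 more positive. Of the 1441 probe sets called in adipose tissue above, 185 also differed from liver, 109 from muscle and 56 from both. Both comparisons hold the same adipose change by which those probe sets were called, so this overlap is in part built in. The numbers that differed from liver and from muscle were 127 and 38 without untreated obese adipose array 1, 143 and 51 without AG035029 array 2, and 158 and 58 without AG035029 array 3, while those from muscle were 63 to 78 without any 1 of the other 3 arrays. All arrays left out were adipose arrays, so the dependence on single liver or muscle arrays was not tested. In the fit of all 54 arrays AG035029 gave 247 rises and 161 falls in fat, against 75 and 73 in liver and 31 and 22 in muscle, each of 11520. The fit of the adipose arrays alone gave 639 rises and 802 falls of 9519 for the same comparison in fat. The counts, and which direction had more of them, thus depended on the fit, and the reason was not tested.

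**Figure D5:**
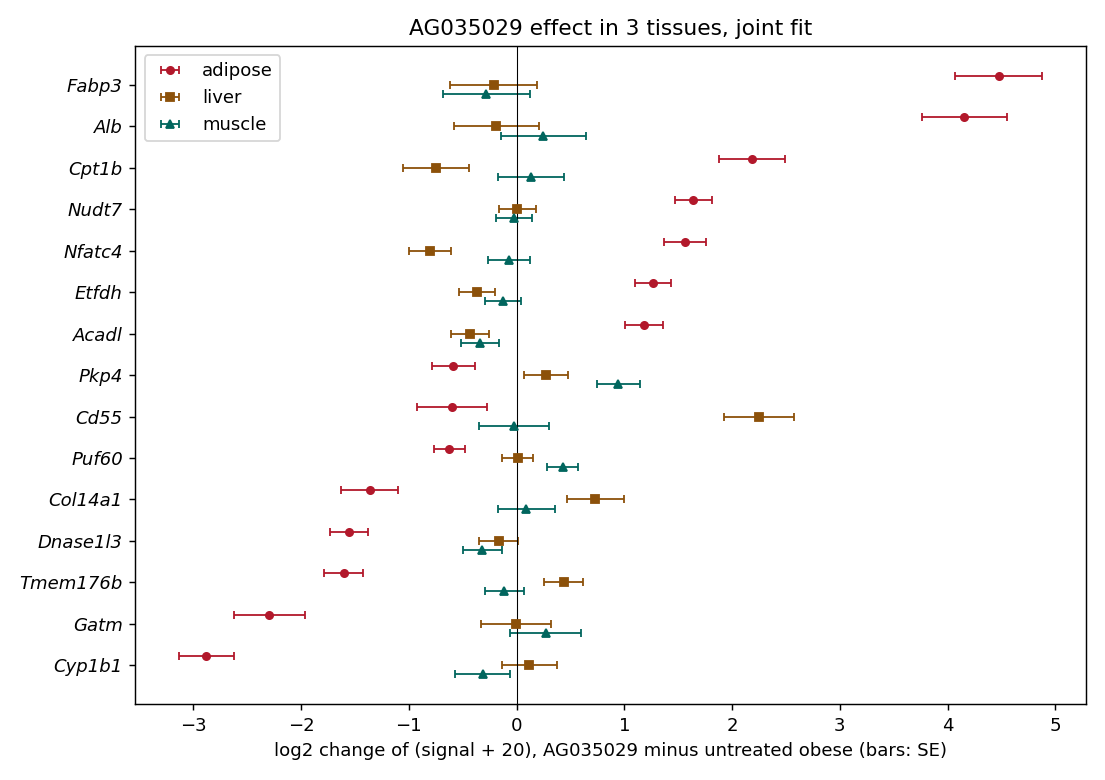
Points are log2 changes (AG035029 minus untreated obese) with SE in each of the 3 tissues for 15 genes whose change differed between tissues and which were also called in adipose tissue. Fabp3, Alb and Cpt1b lie far right of 0 and Cyp1b1 and Gatm far left of 0 in adipose tissue alone, whereas Cd55 is highest in liver.

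Fabp3 changed by 4.48 ± 0.40 in adipose tissue, against -0.21 ± 0.40 in liver and -0.28 ± 0.40 in muscle. Its mean signal was 236 with AG035029 and 274 without in liver, and 9218 and 11848 in muscle, its usual site. Cpt1b changed by 2.18 ± 0.31 in adipose tissue and -0.75 ± 0.31 in liver. Acadl, the long-chain acyl-CoA dehydrogenase, changed by 1.18 ± 0.18 in adipose tissue and -0.34 ± 0.18 in muscle. Nfatc4, a calcium-regulated transcription factor, changed by 1.56 ± 0.19, -0.80 ± 0.19 and -0.07 ± 0.19 in fat, liver and muscle. Among the genes more negative in adipose tissue, Cyp1b1 changed by -2.88 ± 0.25, 0.12 ± 0.25 and -0.31 ± 0.25 in the same order. Tmem176b, a membrane protein of dendritic cells, and Dnase1l3, a secreted nuclease of myeloid cells, changed by -1.60 ± 0.18 and -1.55 ± 0.18 in adipose tissue and by 0.44 ± 0.18 and -0.17 ± 0.18 in liver.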

How the data were processed

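Transcript levels of epididymal adipose tissue were measured on Affymetrix Rat Expression 230A arrays. Per the labels' protocols, RNA was isolated with Qiagen RNeasy kits and pooled from 2 rats for each array, with 3 arrays per group. The deposited values are linear intensity values, which the authors computed with MAS5 per the submitters' processing notes, without a version. In those values the mean after trimming 2% of probe sets at each end was 500 on every array, and they were not rescaled. Control probe sets were set aside, and 12783 of the remaining 15866 had 1 gene symbol in the platform annotation.

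Values were used as log2(signal + 20). The 9519 probe sets whose mean over the 18 adipose arrays lay above the 40th percentile (a signal of 147) entered 1 linear model of 6 groups with 12 residual degrees of freedom, run in limma (version 3.58.1, under R version 4.3.3) with moderated variances that follow a trend in mean signal. Benjamini-Hochberg adjustment covered all tested probe sets, with a threshold of 0.05. Tissue differences came from 1 fit of all 54 arrays (11520 probe sets). Gene lists use the probe set of highest mean per gene. Fold changes on this scale understate the change of dim genes, and 3 arrays a group limit the precision: the median 95% interval reached 0.34 to either side. The fit was tested on simulated data.

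Named genes are the 12 largest rises and falls with separate groups and a mean of at least 100. Up to 5 called members per list and direction were added by adjusted p, and members that did not pass as values. Each difference from another adipose group gave up to 4 per direction. Each tissue difference gave up to 5 per direction among those also called in adipose tissue. The last are 12 genes of PPARγ biology, of which Adipoq is not analysed here. The epididymal and epithelial genes and probe sets of a gene beyond these were chosen after their values were seen. The members and lists were chosen with earlier results of these data known. As alternatives the pseudocount was set to 5 or 80, the filter was dropped or raised to the 60th percentile, and arrays were quantile normalized, centred on their medians or weighted by quality. The model was also run without the variance trend, with replicate number as a block, on the compared arrays alone and at an adjusted p of 0.01. Each adipose array of the groups compared was left out in turn, but no liver or muscle array was. Residuals of same-number arrays correlated by 0.0184 on average, with 0.13, -0.0576 and 0.0829 between AG035029 and untreated obese arrays, so numbers were not used as pairs.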

Additional observations from a re-analysis of the deposited data

Results flagged for a closer look

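Each value here is the effect of AG035029 in adipose tissue minus its effect in another tissue (log2, ± SE). For each, limma's test of that difference passed over 11520 probe sets. Only genes also called in adipose tissue could enter, up to 5 per direction by adjusted p, so other tissue differences are not shown. Against liver, adipose tissue was more positive for Nfatc4 by 2.36 ± 0.27, for Fabp3 by 4.69 ± 0.57, for Alb by 4.34 ± 0.56, for Cpt1b by 2.93 ± 0.43 and for Etfdh by 1.64 ± 0.24. It was more negative for Cyp1b1 (-3.00 ± 0.36), Tmem176b (-2.04 ± 0.26), Cd55 (-2.85 ± 0.46), Col14a1 (-2.09 ± 0.37) and Dnase1l3 (-1.39 ± 0.25). The difference of Cd55, a complement-regulating protein, comes mostly from a change of 2.25 in liver, against -0.60 in adipose tissue. Against muscle, adipose tissue was more positive for Fabp3 by 4.76 ± 0.57, for Alb by 4.58 ± 0.64 (another probe set), for Nudt7 by 1.66 ± 0.24, for Acadl by 1.53 ± 0.25 and for Nfatc4 by 1.63 ± 0.27. It was more negative for Cyp1b1 (-2.57 ± 0.36), Tmem176b (-1.49 ± 0.26), Gatm (-2.56 ± 0.46), the junction protein gene Pkp4 (-1.53 ± 0.29) and the splicing factor gene Puf60 (-1.05 ± 0.20). In muscle the changes were 0.94 for Pkp4 and 0.43 for Puf60, against -0.59 and -0.63 in adipose tissue. The adipose fall of Cd55 did not pass when AG035029 array 1 or untreated obese array 3 was left out, with an adjusted p of at most 0.0834, and that of Pkp4 did not pass without any 1 of 5 arrays, with at most 0.108. Without AG035029 array 1 and untreated obese arrays 1 and 2 together, a setting chosen after seeing the data, the difference from liver no longer passed for Dnase1l3 (adjusted p = 0.0503), nor that from muscle for Nfatc4 (0.0663), Tmem176b, Pkp4 and Puf60 (0.161 each). The 2 comparisons share the 6 adipose arrays, and no liver or muscle array was left out in any alternative. No group of 3 arrays was tested for outlying arrays.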

How the results depend on the processing

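Of 198 called changes among the named probe sets, 85 passed under every alternative at 0.05, and 52 were lost when some single array was left out. The rest were lost only without the 3 arrays with epididymal or epithelial transcripts, a setting that leaves 1 untreated obese array. All 198 kept their direction there, but this was largely fixed beforehand. The groups did not overlap for 1402 of all 1441 called probe sets, so no choice of arrays could turn their sign. Leaving out 1 adipose array gave 385 to 596 probe sets higher than in untreated obese tissue and 500 to 717 lower, 1735 to 1969 differing from lean, 0 to 2 from pioglitazone, 3 to 9 from rosiglitazone and 0 to 3 from troglitazone, and 127 to 180 and 38 to 78 with an effect differing from liver and muscle. An adjusted p under 0.01 gave 315 higher, 357 lower, 1280 against lean, 0 against troglitazone, 65 against liver and 29 against muscle. Leaving out the 3 arrays gave 138 higher, 189 lower, 26 against liver and 10 against muscle. Array weights gave 1208 lower, 5 against pioglitazone and 292 against muscle, and only the arrays compared gave 0 against pioglitazone and 0 against troglitazone. Against troglitazone no filter gave 0 and no trend 2. Against muscle quantile normalization gave 219, median centring 59 and no trend 71. With the replicate number as a block the counts were 632 higher, 780 lower, 2364, 1, 4 and 0 against lean, pioglitazone, rosiglitazone and troglitazone, and 227 and 109 against liver and muscle. The share of calls that were rises was 44.3%, 47.4% with quantile normalization and 51.1% with median centring, and over all probe sets the log2 change shifted upward by a median of 0.0389 and 0.0385. Ppard, whose change was -0.01, turned sign with quantile normalization (0.0407) and median centring (0.0247), and ran from -0.132 to 0.0772 when 1 array was left out. The cause of these moves was not tested. Dim probe sets, below a mean signal of 147, were not tested.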

Other observations

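Summed marker signals of other cell types were read on the same arrays, as values with no test. Brown adipocyte markers summed to 9670 to 10560.4 with AG035029 and 4866 to 5319 in untreated obese tissue, with Cpt1b and Cidea as the bright members. Erythroid markers summed to 11989 to 18273 with AG035029 and 18565 to 20682 without, mast cell markers to 2597 to 3138 and 2065 to 2204, and mesothelial markers to 1370.3 to 1515 and 1459 to 3594. The mesothelial sum includes Krt19, which read 1716, 822 and 171 on the untreated obese arrays, high on the 2 with epithelial transcripts. The median log2 change of the mesothelial markers was -0.59, and 0.03 without the 3 arrays with epididymal or epithelial transcripts. The part of all these markers in the results was not tested.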
